A study of Homo sapiens with 12 samples.

Results

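The negative-feedback arm of MAP kinase signalling is represented here by 10 genes, 7 dual-specificity phosphatase genes (DUSP1, DUSP2, DUSP4, DUSP5, DUSP6, DUSP8 and DUSP10) and 3 Sprouty genes (SPRY1, SPRY2 and SPRY4). They were chosen by name, with earlier results of these data known, and all 10 were among the 11963 genes measured. Shares over all genes are set beside their counts as background, not as a test of the set. Together they were covered by 15 probe sets that carry only that gene's symbol, and the brightest probe set stood for each gene. The cells were MDA-MB-231, an established human line of triple-negative breast cancer. They were grown in DMEM with serum and exposed for 24 h to the vehicle DMSO, to rotenone (an inhibitor of mitochondrial complex I), to digoxin (a cardiac glycoside, an inhibitor of the sodium-potassium ATPase) or to manassantin (a plant lignan). Each of the 4 groups held 3 GeneChip arrays, 12 in all, of 1 unmodified cell line with no genetic change between groups. The sample titles say digoxin, while the design text of the series names digitoxin, a close relative, so which glycoside was used is unresolved, and the titles' name is kept. That text calls the lignan manassantin A. Neither doses nor the oxygen level could be taken from the labels. The labels do not tie the 3 arrays of a group to separate cultures, so each p-value reflects the spread between these arrays, which may be technical.

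As background, MAP kinases are switched on by phosphorylation of a threonine and a tyrosine in their activation loop, and the DUSP enzymes remove both phosphates. Many DUSP genes are themselves induced by the kinases they silence, which closes a feedback loop: DUSP1, DUSP2, DUSP4 and DUSP5 encode inducible enzymes of the nucleus, DUSP6 a cytoplasmic enzyme selective for ERK, and DUSP8 and DUSP10 enzymes that act mainly on JNK and p38. Sprouty proteins act upstream, restraining the signal from receptor tyrosine kinases to RAS and RAF, and in cells with strong ERK signalling their genes are typically transcribed as part of the response.

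The values are log2 expression, and a difference of 1 is a 2-fold change. A gene is called where the adjusted p of limma's moderated test over all 11963 genes lay under 0.05. Genes with a 12-array mean below the 40th percentile (a log2 value of 5.747) are termed dim. Of the 10 genes, DUSP2 and DUSP8 were dim and 8 were not. Levels of different genes come from different probes and are not compared. Markers of the line were in part as the label implies. VIM, CD44, AXL, KRT8, KRT18, MSN, CAV1 and EGFR lay at the 87.6th to 99.8th percentile of genes, and PGR and CDH1 were dim. ESR1, ERBB2, EPCAM and GATA3, which this line is known to hold at low levels, lay between the 45.6th and 68.2nd percentile. All 9 measured markers of leukocytes, endothelium and fibroblasts were dim on average. Arrays of 1 group correlated at 0.9971 to 0.9987 across genes. The 18S rRNA control differed from DMSO by -0.31 with digoxin, -0.39 with rotenone and -0.565 with manassantin (exact permutation tests, two-sided, p = 0.2, 0.2 and 0.3, where 3 against 3 cannot go below 0.1). Its part in the results was tested only by adding it as a covariate, which changed 1 call among the 10 genes' comparisons with DMSO (DUSP10 with rotenone) and moved some of the list counts. In such bulk RNA, a change within each cell and a change in which cells remain cannot be told apart.

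Digoxin changed 8 of the 10, with DUSP1, DUSP2, DUSP6, DUSP8, SPRY2 and SPRY4 higher and DUSP4 and SPRY1 lower, against a background in which it changed 54.8% of all genes (28.0% higher and 26.9% lower). The arrays of 9 of the 10 did not overlap with DMSO, as for 61.9% of all genes. Rotenone changed 4 of the 10, all higher (DUSP1, DUSP5, DUSP10 and SPRY2), where 6.94% of all genes changed (3.55% higher and 3.39% lower). The arrays of 8 of the 10 did not overlap with DMSO, against 31.2% of all genes. Manassantin changed 0 of the 10 by limma's test, where 0.970% of all genes changed (0.853% higher and 0.117% lower). The arrays of 6 of the 10 did not overlap with DMSO, against 22.4% of all genes. At an unadjusted p under 0.05 it had 6 of the 10, and 1896 of all 11963 genes, where rotenone had 6 of the 10 and 2545 of all genes. The median difference over the 10 genes was 0.35 with digoxin (0.07 over all genes), 0.14 with rotenone (0.01) and 0.09 with manassantin (0.01). The 3 comparisons share the same DMSO arrays, so they are not independent of each other. The digoxin background depends on scale: with each array centred on its median, 65.2% of its called genes were higher in place of 51%, while the split among the feedback genes stayed at 6 higher and 2 lower.

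**Figure D1:**
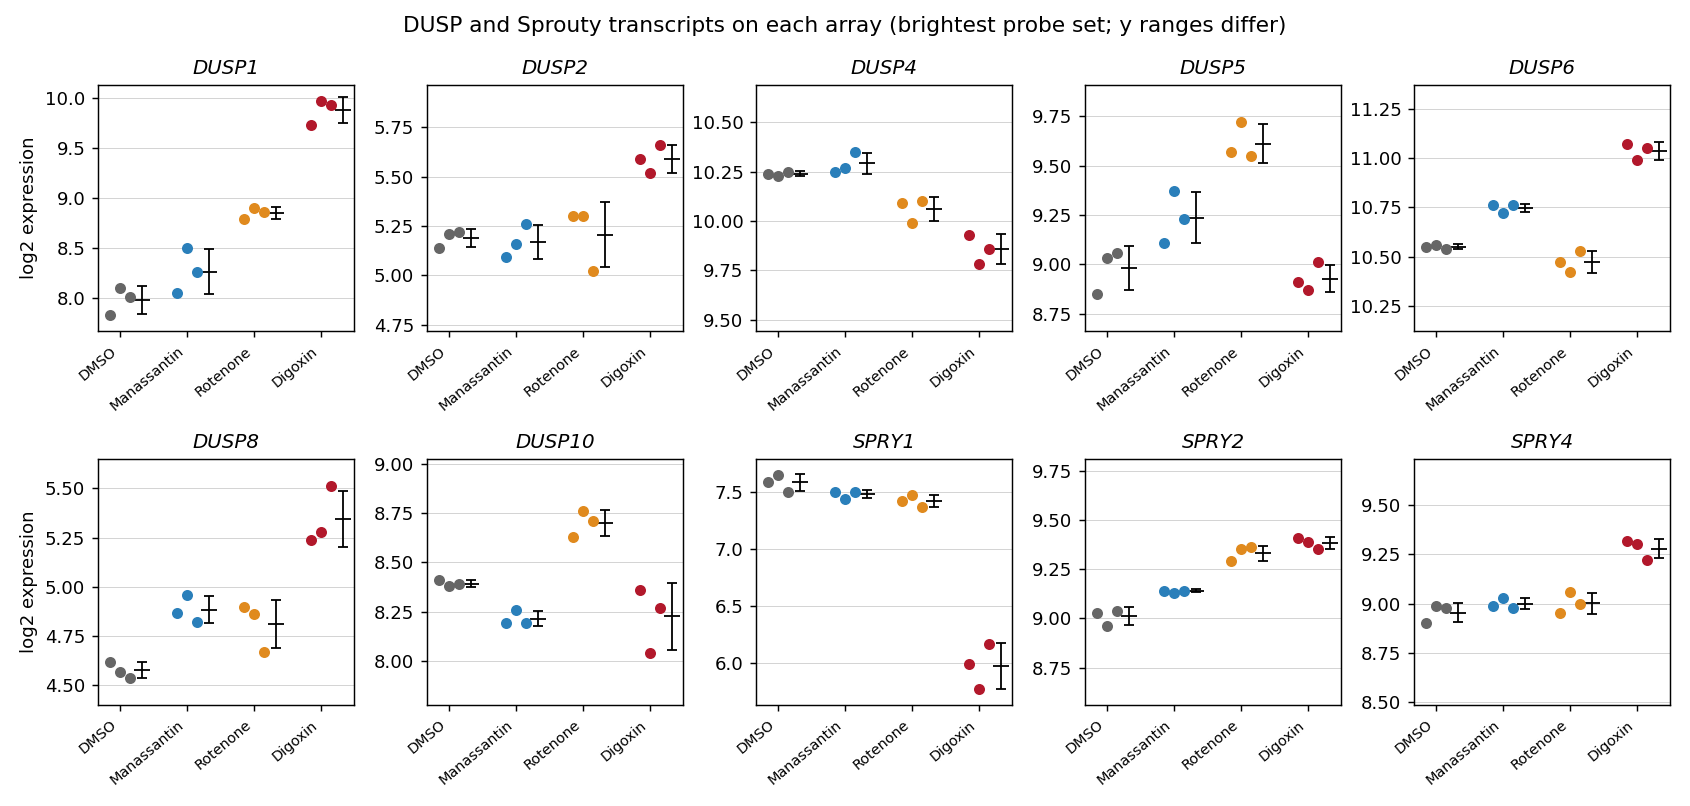
Log2 expression (y axis, range differs by panel) of the 10 genes in the 4 groups (x axis); each point is 1 array and the black mark is the group mean with its SD (n = 3). DUSP1 steps up from DMSO (7.83 to 8.1) through rotenone (8.79 to 8.9) to digoxin (9.73 to 9.97), SPRY1 is lowest on the digoxin arrays (5.77 to 6.17) and DUSP5 is highest on the rotenone arrays (9.55 to 9.72).

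DUSP1, which encodes the stress- and growth-factor-induced phosphatase MKP-1, had the largest rise of the 10 genes with digoxin and with rotenone. Its values were 7.83, 8.1 and 8.01 on the DMSO arrays, 8.05, 8.5 and 8.26 with manassantin, 8.79, 8.9 and 8.86 with rotenone and 9.73, 9.97 and 9.93 with digoxin. All rotenone and digoxin arrays lay above all DMSO arrays, while manassantin and DMSO overlapped. The rise was 1.89 ± 0.108 (SE, n = 3 arrays per group) with digoxin, or 3.71-fold (adjusted p = 2.86e-08), the 26th highest of all genes. With rotenone it was 0.87 ± 0.108, or 1.82-fold (adjusted p = 0.000707), the 11th highest of all genes. With manassantin the difference was 0.28 (95% interval 0.05 to 0.52, adjusted p = 0.226); with the replicate number as a block its adjusted p was 0.0468. Digoxin stood above rotenone by 1.03 ± 0.108 (adjusted p = 6.08e-06), and rotenone above manassantin by 0.59 (adjusted p = 0.00746), so the order digoxin, rotenone, manassantin held at each step by its own test, and the last step, to DMSO, did not pass. A second, dimmer probe set gave smaller differences: 0.96 with digoxin (adjusted p = 1.45e-06), 0.20 with rotenone (adjusted p = 0.23) and 0.001 with manassantin (adjusted p = 0.998), so the rotenone call rests on the brighter probe set. The dimmer one also gave -0.20 for manassantin against rotenone (adjusted p = 0.209).

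DUSP8, whose product is selective for JNK and p38, had the next largest rise with digoxin, although it was dim. It read 4.62, 4.57 and 4.54 with DMSO, 4.87, 4.96 and 4.82 with manassantin, 4.9, 4.86 and 4.67 with rotenone and 5.24, 5.28 and 5.51 with digoxin. Every treated array lay above every DMSO array. The digoxin difference was 0.765 ± 0.0782, or 1.7-fold (adjusted p = 4.25e-06). The differences with manassantin (0.30, 95% interval 0.133 to 0.475, adjusted p = 0.085) and rotenone (0.23, 0.06 to 0.40, adjusted p = 0.103) did not pass, and those groups differed from each other by 0.07 (adjusted p = 0.64).

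The sequence before the start of DUSP1 and of DUSP8 is shown because these genes had the largest rises with digoxin and share a motif, and that of SPRY1 because it had the largest fall. RefSeq windows (GRCh38.p14) matched 8 of the 10 genes, with 12 windows in all, and DUSP4 and DUSP5 were not matched. Where a gene had several windows, all were searched and only the first listed is eligible to be shown. The 250 bases before each start were searched on both strands for the cAMP response element (TGACGTCA), the AP-1 site (TGANTCA), the E-box (CACGTG), the CArG box and the NF-kB site. Each sequence runs 5′ to 3′ on the gene's strand and ends at the base before the start, and capitals mark the cAMP response element. The windows lie at chr5:172771196-172771445 (minus strand), chr11:1572272-1572521 (minus strand) and chr4:123396545-123396794 (plus strand).
DUSP1: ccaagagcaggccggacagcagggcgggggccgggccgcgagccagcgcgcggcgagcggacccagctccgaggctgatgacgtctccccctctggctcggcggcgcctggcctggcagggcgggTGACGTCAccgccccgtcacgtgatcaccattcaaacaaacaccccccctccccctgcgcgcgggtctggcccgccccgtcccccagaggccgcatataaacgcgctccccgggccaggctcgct
DUSP8: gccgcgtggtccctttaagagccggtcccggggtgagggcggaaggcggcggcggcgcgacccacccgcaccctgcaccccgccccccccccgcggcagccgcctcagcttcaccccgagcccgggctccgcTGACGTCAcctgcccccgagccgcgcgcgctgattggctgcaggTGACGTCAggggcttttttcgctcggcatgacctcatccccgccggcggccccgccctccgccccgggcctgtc
SPRY1: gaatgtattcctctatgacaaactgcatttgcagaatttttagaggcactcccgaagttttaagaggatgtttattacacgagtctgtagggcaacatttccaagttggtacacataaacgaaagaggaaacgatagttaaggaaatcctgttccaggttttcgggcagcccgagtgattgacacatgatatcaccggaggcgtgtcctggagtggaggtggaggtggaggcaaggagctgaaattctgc
The element occurred once before DUSP1, from base 125 to base 118 upstream of the start, and at 2 places before DUSP8, from 118 to 111 and from 74 to 67. It was present in these 2 of the 12 windows and in 1.65% of all 35116 windows. The windows of DUSP2, DUSP6, SPRY2 and SPRY4, which were also higher with digoxin, did not hold it. DUSP1 and DUSP8 are shown partly because they hold the element, so these shares are a description and no test. The E-box was found before DUSP1 and DUSP2 (6.34% of all windows). The AP-1 site, the CArG box and the NF-kB site had 0 matches in the 12 windows, where 6.57%, 1.16% and 6.88% of all windows held them. These are letter matches in a short window and describe no binding.

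Among the other inducible nuclear phosphatases the compounds differed gene by gene. DUSP5, whose product is specific for ERK, was called higher with rotenone alone among the comparisons with DMSO. Its values were 8.85, 9.03 and 9.06 with DMSO, 9.57, 9.72 and 9.55 with rotenone, 9.11, 9.37 and 9.23 with manassantin and 8.91, 8.87 and 9.01 with digoxin. The rotenone arrays lay above all other arrays. The rotenone rise was 0.63 ± 0.0801, or 1.55-fold (adjusted p = 0.00078), the 28th highest of all genes. With digoxin the difference was -0.05 (95% interval -0.23 to 0.12, adjusted p = 0.585), and it was 0.03 where arrays were centred on their medians. The gap between digoxin and rotenone was itself tested and was -0.685 ± 0.0801 (adjusted p = 1.51e-05). Manassantin stood between, 0.255 above DMSO (95% interval 0.08 to 0.43, adjusted p = 0.146), with every manassantin array above every DMSO array. This difference passed under a trended robust prior (adjusted p = 0.0337). Manassantin was 0.38 below rotenone (adjusted p = 0.0149). That call was lost without rotenone replicate 2 (adjusted p = 0.0662) or manassantin replicate 1 (adjusted p = 0.0589).

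DUSP2, a phosphatase best known from activated immune cells, was dim and changed with digoxin only among the comparisons with DMSO. It read 5.14, 5.21 and 5.22 with DMSO, 5.59, 5.52 and 5.66 with digoxin, 5.3, 5.3 and 5.02 with rotenone and 5.09, 5.16 and 5.26 with manassantin. The digoxin arrays lay above all others, by 0.40 ± 0.0783 against DMSO (adjusted p = 0.000894) and 0.385 against rotenone (adjusted p = 0.00129). The intervals against DMSO were -0.15 to 0.19 with rotenone and -0.19 to 0.15 with manassantin.

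DUSP4, which encodes MKP-2, fell with digoxin. Its brighter probe set read 10.24, 10.23 and 10.25 with DMSO, 9.93, 9.78 and 9.86 with digoxin, 10.09, 9.99 and 10.1 with rotenone and 10.25, 10.27 and 10.35 with manassantin. Digoxin arrays were below all others, and rotenone arrays lay between digoxin and DMSO. The digoxin difference was -0.38 ± 0.053 (adjusted p = 5.78e-05), and the other probe set also fell, by 0.17 (adjusted p = 0.0224). For rotenone the probe sets went opposite ways, at -0.18 for the brighter (95% interval -0.29 to -0.06, adjusted p = 0.0677 over genes) and 0.20 for the other (0.08 to 0.32, adjusted p = 0.0567 over probe sets). The direction of DUSP4 with rotenone is therefore not settled by these data. The brighter probe set's rotenone difference was called with the replicate block (adjusted p = 0.046), under a trended robust prior (0.0113) and among genes that were not dim (0.0244).

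DUSP6, the cytoplasmic ERK phosphatase MKP-3 and a widely used readout of ERK output, rose with digoxin and was placed highest there by all 3 of its probe sets. The brightest read 10.55, 10.56 and 10.54 with DMSO, 10.47, 10.42 and 10.53 with rotenone, 10.76, 10.72 and 10.76 with manassantin and 11.07, 10.99 and 11.05 with digoxin. No array of any group overlapped another group's on this probe set. The digoxin rise was 0.486 ± 0.0455, or 1.4-fold (adjusted p = 1.99e-06), and the other probe sets gave 0.43 and 0.67. Manassantin stood 0.20 ± 0.0455 above DMSO, a difference that missed the threshold (95% interval 0.10 to 0.30, adjusted p = 0.0673). It passed with the replicate block (adjusted p = 0.0464), under a trended robust prior (0.00412) and among genes that were not dim (0.0177), while the other probe sets gave 0.12 (adjusted p = 0.501) and 0.04 (adjusted p = 0.842). Rotenone stood at -0.08 (95% interval -0.18 to 0.02, adjusted p = 0.367), and manassantin lay above rotenone by 0.275 ± 0.0455 (adjusted p = 0.00415). That last difference passed for one of the other probe sets (0.28, adjusted p = 0.0476) and not for the last (0.17, adjusted p = 0.149).

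DUSP10, which encodes MKP-5, a phosphatase of p38 and JNK, was higher with rotenone. Its brighter probe set read 8.41, 8.38 and 8.39 with DMSO, 8.63, 8.76 and 8.71 with rotenone, 8.19, 8.26 and 8.19 with manassantin and 8.36, 8.04 and 8.27 with digoxin. The rotenone rise was 0.31 ± 0.0731, or 1.24-fold (adjusted p = 0.0269). That call was lost without DMSO replicate 1, 2 or 3 (adjusted p = 0.0647, 0.0895 and 0.0865), without rotenone replicate 2 or 3 (0.115 and 0.0805), with the 18S covariate (0.104) and for the other probe set (0.27, adjusted p = 0.0931). The differences from DMSO with manassantin (-0.18, 95% interval -0.34 to -0.02, adjusted p = 0.256) and digoxin (-0.17, -0.33 to -0.01, adjusted p = 0.0717) did not pass. The digoxin difference passed without digoxin replicate 1 (-0.24, adjusted p = 0.016), under a trended robust prior (0.0351) and among genes that were not dim (0.0433). It was smaller without digoxin replicate 2 (-0.07, adjusted p = 0.294), with median centring (-0.08, adjusted p = 0.322) and for the other probe set (-0.05, adjusted p = 0.611), on which digoxin (7.43 to 7.75) and DMSO (7.61 to 7.71) overlapped. The direct comparison of compounds was clearer: manassantin minus rotenone was -0.49 ± 0.0731 (adjusted p = 0.00222), a call that passed in each of its 16 alternatives, and digoxin minus rotenone was -0.475 (adjusted p = 0.000149).

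With digoxin SPRY1 fell while SPRY2 and SPRY4 rose. SPRY1 read 7.59, 7.65 and 7.5 with DMSO, 7.5, 7.44 and 7.5 with manassantin, 7.42, 7.47 and 7.37 with rotenone and 5.99, 5.77 and 6.17 with digoxin. The digoxin arrays were far below the rest, which lay close together. SPRY1 fell by 1.61 ± 0.084 (SE), or 3.05-fold (adjusted p = 1.44e-08), the 117th lowest of all genes, and the interval was -0.35 to 0.02 with rotenone and -0.285 to 0.083 with manassantin.

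SPRY2 rose with both digoxin and rotenone. Its values were 9.03, 8.96 and 9.04 with DMSO, 9.14, 9.13 and 9.14 with manassantin, 9.29, 9.35 and 9.36 with rotenone and 9.41, 9.39 and 9.35 with digoxin. Each treated group lay above DMSO, and the digoxin and rotenone ranges crossed. The rises were 0.37 ± 0.044 with digoxin (adjusted p = 1.51e-05) and 0.32 ± 0.044 with rotenone (adjusted p = 0.00131), with a difference between them of 0.05 (95% interval -0.05 to 0.15, adjusted p = 0.355). Manassantin stood 0.13 above DMSO (0.03 to 0.23, adjusted p = 0.169) and below rotenone (-0.19 ± 0.044, adjusted p = 0.0221). That last call was lost without rotenone replicate 2 or 3 (adjusted p = 0.077 and 0.0862), without manassantin replicate 1, 2 or 3 (0.061, 0.0514 and 0.0592) and in a fit on those groups alone (0.0609). SPRY4 read 8.9, 8.99 and 8.98 with DMSO, 8.99, 9.03 and 8.98 with manassantin, 8.95, 9.06 and 9.0 with rotenone and 9.32, 9.3 and 9.22 with digoxin. Here the digoxin arrays alone stood apart, by 0.325 ± 0.0491 against DMSO (adjusted p = 0.000123), and the manassantin and rotenone intervals against DMSO ran from -0.06 to 0.15 and from -0.06 to 0.155.

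**Figure D2:**
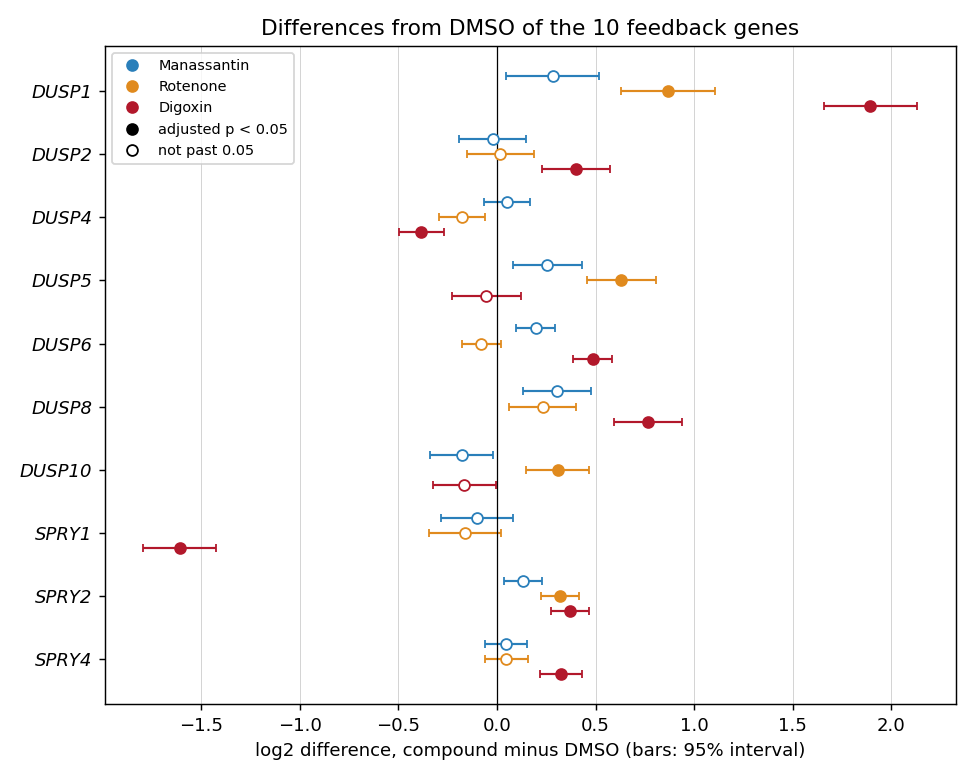
Log2 difference from DMSO (x axis) of each of the 10 genes (y axis) for manassantin, rotenone and digoxin, with 95% intervals from limma; filled points passed an adjusted p of 0.05 and open ones did not. Digoxin spans from -1.61 for SPRY1 to 1.89 for DUSP1, rotenone has 4 filled points, all to the right of 0, and manassantin has none.

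Set against each other, the compounds differed for most of these genes. Digoxin and rotenone differed for 9 of the 10 (5 higher and 4 lower with digoxin, where 50.5% of all genes differed, 24.2% higher and 26.3% lower), and the exception was SPRY2. Their arrays did not overlap for the same 9, as for 58.1% of all genes. With each array centred on its median the split was 6 higher and 3 lower, as SPRY2 was gained (0.135, adjusted p = 0.0203) and DUSP4 lost (-0.12, adjusted p = 0.0601). Digoxin and manassantin differed for 9 of the 10 as well (6 higher and 3 lower, where 56.7% of all genes differed, 28.6% higher and 28.1% lower, and 59.7% did not overlap), and the exception was DUSP10, at 0.01 (95% interval -0.15 to 0.17). DUSP5 was lower with digoxin than with manassantin by this test (-0.31 ± 0.0801, adjusted p = 0.006), although neither passed against DMSO. Manassantin and rotenone differed for 6 of the 10, where 8.47% of all genes did (4.69% higher and 3.78% lower, and 29.2% without overlap): DUSP4 (0.23 ± 0.053, adjusted p = 0.0223) and DUSP6 were higher with manassantin, and DUSP1, DUSP5, DUSP10 and SPRY2 were lower. The DUSP4 difference was seen only in its brighter probe set, as the other gave -0.051 (adjusted p = 0.662) and their mean 0.09 (adjusted p = 0.292). It was also lost without rotenone replicate 2 (adjusted p = 0.0902) or manassantin replicate 3 (0.0809) and in a fit on those groups alone (0.0572). Without rotenone replicate 2 the count of 6 was 3.

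**Figure D3:**
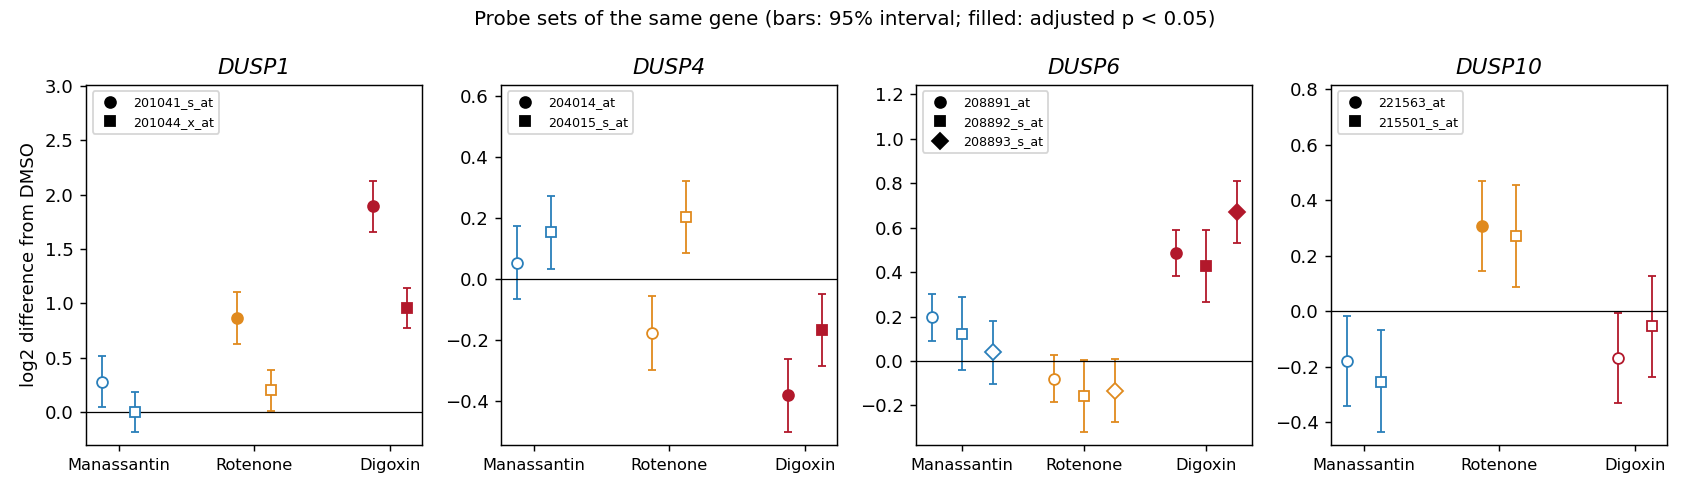
Log2 difference from DMSO (y axis) with 95% intervals for each probe set of the 4 genes that have several, by compound (x axis); marker shape gives the probe set, and filled markers passed an adjusted p of 0.05 over all 22215 probe sets. The DUSP6 probe sets run together (0.43 to 0.67 with digoxin), the DUSP1 probe sets differ in size (1.89 and 0.96 with digoxin), and the DUSP4 probe sets part with rotenone (-0.18 and 0.20).

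The rest of the pathway was read from 5 lists, which were also chosen with earlier results of these data known. Their counts stand against the 54.8%, 6.94% and 0.970% of all genes called with digoxin, rotenone and manassantin. Their medians stand against 0.07, 0.01 and 0.01 over all genes. Of 18 genes induced downstream of ERK, digoxin raised 12 and lowered 3 (median 0.59). The largest rises were EGR1 (3.81 ± 0.15, adjusted p = 1.57e-09), FOS (1.97, dim), LIF (0.98) and EPHA2 (0.94). The 3 lowered were ETV1 (-0.45), ETV5 (-0.44) and CCND1 (-0.22). FOSL1 (0.01), PHLDA1 (0.11) and MYC (0.11) were not called with digoxin. Rotenone raised 8 of the 18 and lowered 0 (median 0.17), with EGR1 at 1.35, FOS at 0.84, IER3 at 0.56 and PLAUR, the urokinase receptor gene, at 0.40. Manassantin raised 2, IER3 (0.34 ± 0.0509, adjusted p = 0.0178) and PLAUR (0.24 ± 0.0497, adjusted p = 0.0483). That count of 2 was 1 without DMSO replicate 1, with quantile normalization, with median centring and over every probe set. It was 0 without any other DMSO or manassantin array, with the 18S covariate and in a fit on those groups alone. With dim genes left out manassantin raised 4, and under a trended robust prior it raised 3 and lowered 1. Rotenone's count of 8 was 6 to 7 with an array left out and 6 with the 18S covariate. Under a trended robust prior rotenone raised 9 and lowered 2. Digoxin's 12 was 11 to 12 with an array left out and 14 with median centring. IER3 encodes a survival protein that is itself an ERK target, and it stood at 11.18 to 11.28 with DMSO, 11.55 to 11.63 with manassantin, 11.74 to 11.88 with rotenone and 12.09 to 12.12 with digoxin, with no overlap between groups. EGR1 differed from DMSO by -0.04 with manassantin (adjusted p = 0.925).

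Of 10 other measured phosphatase genes, not all of which are established to act on MAP kinases, digoxin lowered 5 and raised 2 (median -0.10). DUSP7, an ERK phosphatase closely related to DUSP6, moved opposite to it. It read 8.22 to 8.31 with DMSO and 6.93 to 7.19 with digoxin, a difference of -1.196 ± 0.0613 (adjusted p = 1.25e-08). DUSP3 fell by 0.65 and DUSP14 rose by 0.44. PTPRR, a tyrosine phosphatase that binds MAP kinases, was dim and rose with digoxin (0.87 ± 0.0825) and with rotenone (0.69 ± 0.0825, adjusted p = 0.000555), where it was the 1 changed gene of the 10. With manassantin it stood at 0.365 (adjusted p = 0.0634), and 0 of these 10 were called by limma (2 at an unadjusted p under 0.05). That 0 was 1 with dim genes left out, with the mean of probe sets and under a trended robust prior. Of 8 other brakes on the pathway, digoxin raised 4 and lowered 2: PEA15, which holds ERK in the cytoplasm, rose by 1.05 ± 0.051 and CBLB, a ubiquitin ligase, by 0.49, while PEBP1, the RAF kinase inhibitor protein, fell by 0.71 ± 0.0456 and SPRED2 by 0.48. The raised count was 2 without DMSO replicate 2, without digoxin replicate 2, with quantile normalization or with dim genes left out. Rotenone and manassantin each changed 0 of the 8 by limma's test (2 and 1 at an unadjusted p under 0.05, where all 11963 genes had 2545 and 1896). Rotenone's 0 was 1 with the replicate block, with dim genes left out and under a trended robust prior.

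Of 17 measured genes from receptor adaptors to ERK and its substrate kinases, digoxin lowered 7 and raised 3 (median -0.05), with RPS6KA2 at -1.29 ± 0.157, MKNK2 at -0.90, SOS1 at -0.58 and ARAF at 0.53. Rotenone and manassantin changed 0 of the 17 by limma's test (2 and 4 at an unadjusted p under 0.05, with 2545 and 1896 over all 11963 genes). Their medians were 0.003 and 0.094. Manassantin's 0 was 1 with dim genes left out, with the mean of probe sets and under a trended robust prior. Over every probe set both compounds had 1. Of 19 genes of the JNK, p38 and ERK5 modules, digoxin lowered 9 and raised 3 (median -0.14), with MAP3K5 at -0.92, MAPK12 at -0.86, MAPKAPK3 at -0.74 and MAP3K7 at -0.69. Rotenone changed 3 of them, raising MAP3K11 (0.30, adjusted p = 0.0213) and MAPKAPK2 (0.23, adjusted p = 0.0283) and lowering MAPK9, which encodes a JNK (-0.20, adjusted p = 0.0207). That count of 3 was 0 without DMSO replicate 2 or 3, without rotenone replicate 2 and with the 18S covariate, 1 without DMSO replicate 1 or rotenone replicate 1, and 2 without rotenone replicate 3. Manassantin changed 0 of the 19 by limma's test (4 at an unadjusted p under 0.05, with 1896 over all 11963 genes). That 0 was 2 with dim genes left out and under a trended robust prior, and 1 with the mean of probe sets. List genes with no probe set used here were not analysed.

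**Figure D4:**
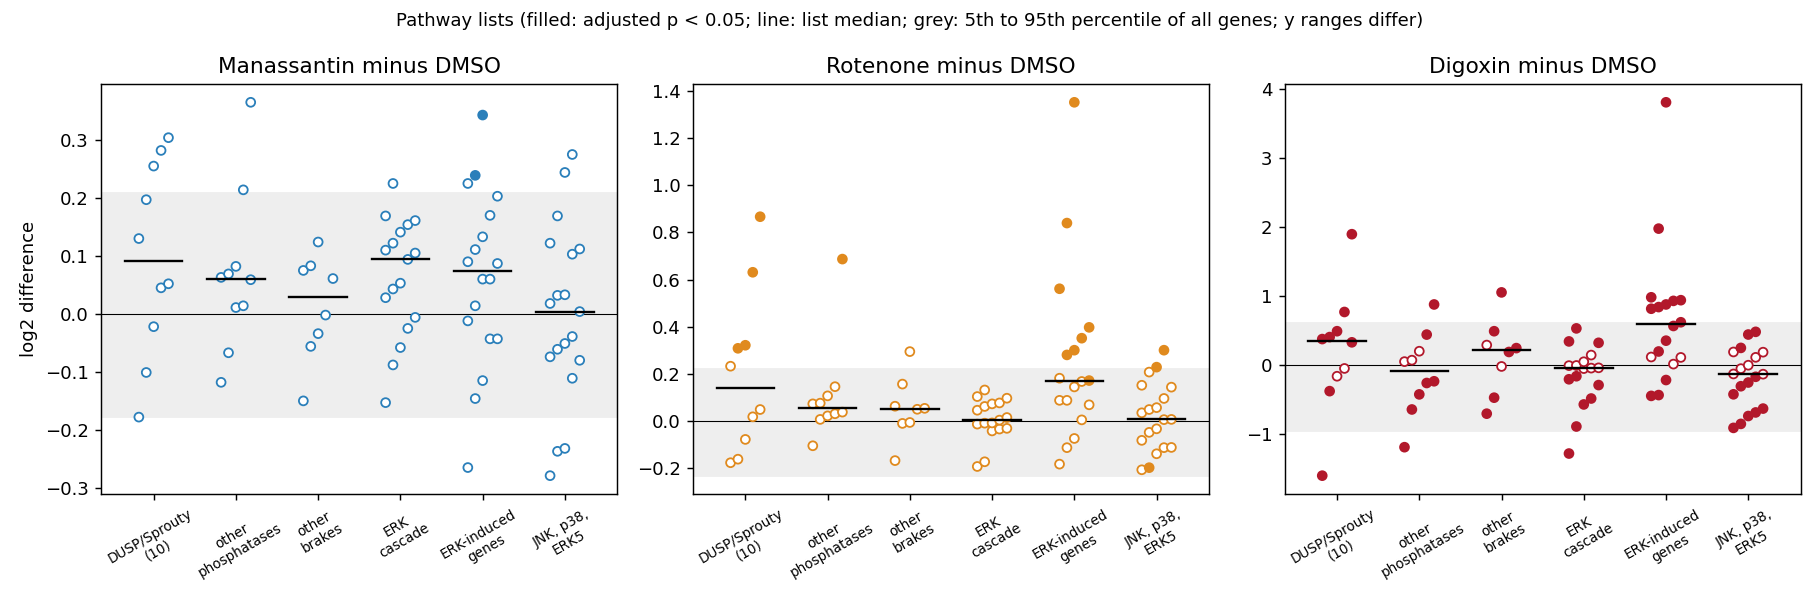
Log2 difference from DMSO (y axis, range differs by panel) of each measured gene in 6 lists (x axis), for manassantin, rotenone and digoxin; filled points passed an adjusted p of 0.05, black lines are list medians and the grey band is the 5th to 95th percentile of all genes. Among the 18 ERK-induced genes 2, 8 and 12 rose with manassantin, rotenone and digoxin, and 3 fell with digoxin. EGR1 is the highest point with rotenone (1.35) and digoxin (3.81).

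The 2 genes with the largest differences were set against every gene that was not dim. The likeness is Pearson's r over the 12 arrays among 7177 genes, given as a description only, since the 12 points fall into 4 groups that all genes share. For DUSP1 the closest were IL24, a cytokine gene (r = 0.995), BYSL, a ribosome biogenesis gene (0.994), and KCTD5 (0.991). IL24 differed from DMSO by 3.14, 1.496 and 0.504 with digoxin, rotenone and manassantin, in the same order as DUSP1. For SPRY1 they were ZC3H4 (0.997), WASF3 (0.996) and PNMA1 (0.995), and ZC3H4 stood at -1.68 with digoxin, -0.09 with rotenone and -0.06 with manassantin.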

How the data were processed

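The deposited values are probe set summaries of 12 arrays, taken here to be on a log2 scale. The base was inferred from their range (1.655 to 13.753), and how background, summary and normalization were done was not given in the sources used here. Per the labels' protocols, total RNA was column-purified, amplified and biotin-labelled. Of 22277 probe sets, 62 were controls, 19064 carried 1 gene symbol in the platform annotation, 1043 several and 2108 none. The probe set with the highest mean stood for each of 11963 genes. No filter on dim genes was used. Group differences came from limma 3.58.1 (R 4.3.3, lmFit and eBayes on all 12 arrays with no term but group and 8 residual degrees of freedom), adjusted by Benjamini-Hochberg over all genes. ± is the model's SE, intervals are 95%, and the number of arrays limits the precision. The feedback genes and lists were chosen with earlier results of these data known. Named are the 10 genes, up to 4 called genes of each list with the largest difference from DMSO in a comparison, and for DUSP1 and SPRY1 the 3 genes closest in pattern. The ERK-induced genes that digoxin lowered or that were not called with it are named as well. The fitting code was tested on simulated data with known answers.

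Replicate numbers are shared by the groups. Deviations of same-numbered arrays correlated at 0.107 to 0.362 for manassantin and rotenone, which met a criterion of over 0.1 for every pair; for the other comparisons at least 1 pair did not, and what the number marks is unstated. Alternatives were the replicate block, quantile normalization, median centring, dim genes left out, the mean of probe sets, a trended robust prior, each probe set in turn, a fit on only the groups compared, the 18S control as a covariate and leaving out each array. Figures used Python 3.11.15 and matplotlib 3.10.9.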

Additional observations from a re-analysis of the deposited data

How the results depend on the processing

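With manassantin against DMSO the count of 0 was 2 with the replicate block (DUSP1 and DUSP6), 1 with dim genes left out (DUSP6) and 2 with a trended robust prior (DUSP5 and DUSP6), and 0 in every other alternative. It ran from 7 to 9 for digoxin and from 3 to 5 for rotenone against DMSO, around 8 and 4. For manassantin against rotenone it was 3 to 6 with arrays left out, lowest without rotenone replicate 2. With its dimmer probe set, DUSP4 turned from 0.23 to -0.051 between manassantin and rotenone. With the replicate block, counts were 8, 5 and 2 against DMSO for digoxin, rotenone and manassantin, and 6 for manassantin against rotenone, where the pairing criterion was met. DUSP2 and DUSP8 have no value with dim genes left out.

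Over all genes, rotenone's 830 called genes ran from 346 to 500 with an array left out and from 339 to 1312 otherwise, and manassantin's 116 from 7 to 25 and from 3 to 503. Manassantin against rotenone had 1013, or 500 to 835 with an array left out. A difference that missed the threshold is not shown to be absent.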
